A study of Sus scrofa with 17 samples.

Results

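This account follows 10 genes of the heat shock chaperone system through 17 libraries of right ventricular heart muscle, each from 1 pig (Sus scrofa). The genes are HSPH1, HSP90AA1, HSPA8, DNAJB1, BAG3, HSPB1, CRYAB, HSPA5, HSPD1 and HSPE1. They were taken by symbol from a table of 35670 genes. Each symbol stood on 1 row, and all 10 genes passed the filter on low counts that left 15884 genes for testing. The list was a choice of known genes, made with earlier results of these data known. All 17 animals carried right ventricular pressure overload, so no unloaded ventricle is compared here. Multiple doses of mononuclear cells taken from umbilical cord blood were given to 7 animals (multidose), 1 dose to 5 (single dose) and vehicle without cells to 5 (vehicle control). The treatment was assigned at random and each library is 1 animal, per the series text. The dose, the harvest time, the sex, the age, the weight and the batch of each animal are not given in the labels.

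Heat shock proteins bind unfolded or partly folded proteins and keep them from clumping until they fold or are degraded. Many of their genes are switched on by heat shock factor 1 when misfolded protein builds up in the cytosol, while a separate unfolded protein response controls those of the endoplasmic reticulum. Heart muscle is known for high small heat shock protein expression, and BAG3 works with them and with HSP70 in the turnover of damaged proteins at the sarcomere's Z-disc.

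The libraries held 21754800 to 61144663 counts. Library names in the labels begin with M1 in 5 cases (multidose 1 to 4 and single dose 1) and with M8 or M9 in the other 12, every control among them, and what the names stand for is not given. The M1 libraries held 21754800 to 40969168 counts and the others 40621934 to 61144663, so name and depth are linked, and name is linked in part with dosing. The lowest count of any of the 10 genes in any library was 453 (HSPH1), a counting error of 4.70%. All 11 listed cardiomyocyte markers found in the table passed the filter on low counts. Their summed level ran from 59793 to 82116 CPM after multiple doses. It ran from 60813 to 73916 CPM after a single dose and from 44718 to 72943 CPM in controls. CPM scale the counts of a library to a total of 1000000, and log2 values carry a prior count of 2. In bulk tissue, fewer cells of a type and less RNA per cell cannot be told apart. Levels are compared between animals and never between genes, because no transcript lengths were used.

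The first question is whether cell dosing changed the chaperone genes. By edgeR's quasi-likelihood test, 0 of the 10 genes changed between multidose and vehicle control, against a background of 0% of all 15884 genes called (adjusted p under 0.05). The same held for single dose against control (0 of 10 genes, background 0%) and for multidose against single dose (0 of 10, background 0%). At an unadjusted p under 0.05, 1 of the 10 genes, HSPH1, stood out in each comparison with control, where 12.6% of all genes did so for multidose (6.74% higher, 5.83% lower) and 5.26% for single dose (2.42% higher, 2.84% lower). HSPH1 lay on the lower side in both. In the M8 and M9 libraries alone, which hold fewer dosed animals, the shares of all genes were 3.66% for multidose and 3.54% for single dose. With M1 names as a covariate over all libraries they were 3.82% and 4.76%. Between the dosed groups 0 of the 10 genes had an unadjusted p under 0.05, against 2.11% of all genes (0.888% higher, 1.22% lower in multidose). DESeq2 and limma-voom also called 0 of the 10 genes in each of these comparisons, and of all genes DESeq2 called 8, 10 and 0 and limma-voom 0, 0 and 0. The log2 fold change was below 0 for 8 of the 10 genes after multiple doses (50.7% of all genes) and for 8 of 10 after a single dose (49.6% of all genes), with medians of -0.27 and -0.20. These comparisons share the same 5 controls. Without vehicle control 4 and the M1 libraries, 3 of the 10 genes were below 0 for multidose (median 0.073). For single dose 5 of the 10 were below 0 in that fit (median -0.043). No gene of the 10 had dosed and control animals whose values failed to overlap, where 0.271% of all genes did for multidose and 0.875% for single dose.

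**Figure D1:**
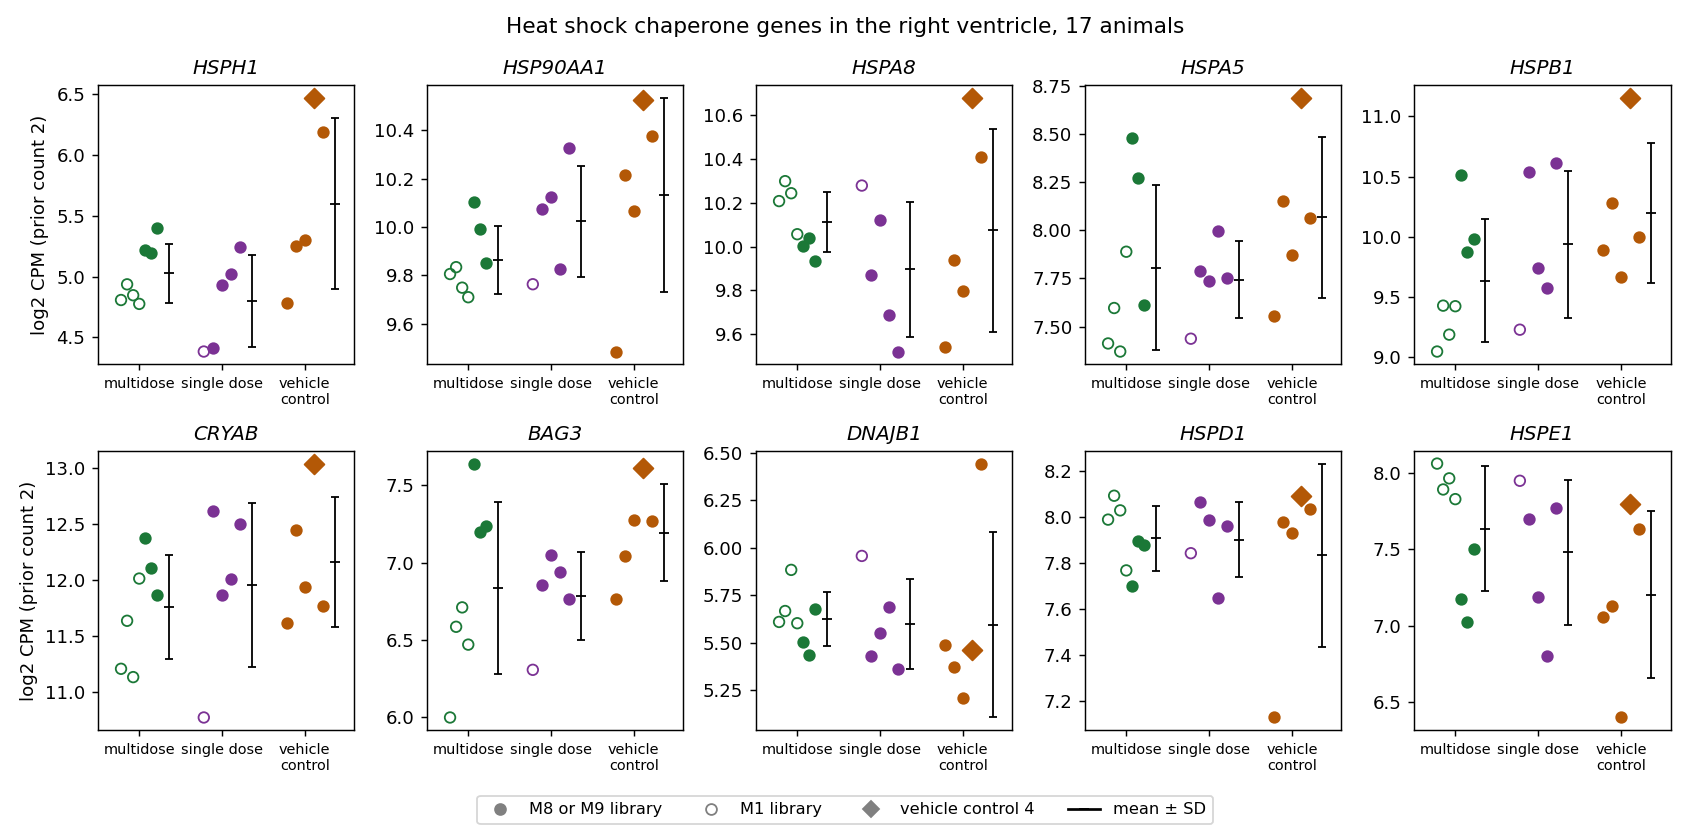
Log2 CPM of the 10 chaperone genes (1 panel per gene) in 17 libraries, by dosing group. Open circles are M1 libraries, filled circles M8 or M9 libraries, the diamond is vehicle control 4, and bars are mean ± SD of the group. Vehicle control 4 is the highest point for 6 genes, and the groups overlap in every panel.

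HSPH1 (ENSSSCG00000009334, chromosome 11, 7733874 to 7759528 on Sscrofa11.1) encodes the HSP110 chaperone that recharges HSP70 by exchanging its nucleotide. The 5 controls measured 27.5, 38.0, 39.4, 88.4 and 72.6 CPM and the 5 single dose animals 20.8, 21.3, 30.4, 32.4 and 37.8 CPM. Among the 7 multidose animals the lowest measured 27.3, the median 30.6 and the highest 42.2 CPM. Vehicle controls 4 and 5 were the highest of all 17 libraries, while control 1 lay among the dosed animals, and controls 2 and 3 lay above every dosed animal except multidose 7. The group means were 53.2 ± 26.0 CPM (SD, n = 5) in controls, 32.9 ± 5.71 CPM (SD, n = 7) in multidose animals and 28.5 ± 7.32 CPM (SD, n = 5) after a single dose. The log2 fold change against control was -0.69 for multidose (SE 0.24, adjusted p = 0.366 by edgeR) and -0.90 for single dose (SE 0.27, adjusted p = 0.876 by edgeR). Only 2.78% and 0.353% of all genes had a smaller p in these comparisons. Without vehicle control 4 the values were -0.43 and -0.63, and without control 4 and the M1 libraries they were -0.21 and -0.54.

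HSP90AA1 (ENSSSCG00000002535), the inducible cytosolic HSP90, holds kinases and steroid receptors in a form ready for activation. The controls measured 716, 1188, 1071, 1476 and 1329 CPM, and the single dose animals 869, 1077, 1116, 908 and 1286 CPM. Multiple doses gave a lowest value of 837, a median of 912.5 and a highest of 1101 CPM over 7 animals. Vehicle control 4 was the highest and vehicle control 1 the lowest of all libraries, so the controls spanned the dosed groups. The means of 1156 ± 289 CPM (SD, n = 5) in controls, 1051 ± 169 CPM (SD, n = 5) after a single dose and 935 ± 93.0 CPM (SD, n = 7) after multiple doses differed by less than the SD of the controls. The log2 fold change was -0.31 for multidose (SE 0.16) and -0.14 for single dose (SE 0.18), with adjusted p values of 0.431 and 0.915 by edgeR. They moved to -0.20 and -0.032 without control 4.

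HSPA8 (ENSSSCG00000015140, chromosome 9, 49982278 to 49986760) is the constitutive cytosolic HSP70. The inducible HSP70 genes HSPA1A and HSPA1B were not analysed here. HSPA8, HSP90AA1, HSPD1 and HSPE1 have near-identical copies in many mammalian genomes, and how reads that fit several copies were counted is not given in the sources used here, so their counts are less certain. In the controls it measured 746, 983, 889.8, 1641 and 1359 CPM, against 1242, 936, 1114, 824 and 734 CPM after a single dose. In the multidose group of 7 the values spanned 979 to 1259.6 CPM with a median of 1065 CPM. Controls 4 and 5 lay above every dosed animal and control 1 below all but single dose 5. Its means were 1124 ± 367 CPM (SD, n = 5) in controls, 1111 ± 106 CPM (SD, n = 7) in multidose animals and 970.0 ± 208 CPM (SD, n = 5) after a single dose, with log2 fold changes of -0.017 (SE 0.19) and -0.21 (SE 0.20). Without control 4 these values were 0.16 and -0.033.

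DNAJB1 (ENSSSCG00000013784, chromosome 2, 64761672 to 64764482) encodes the HSP40 that hands substrates to HSP70 and starts its ATPase cycle. Its controls stood at 44.7, 41.3, 36.9, 44.0 and 86.9 CPM and the single dose animals at 62.0, 43.1, 46.9, 51.5 and 41.0 CPM. The 7 multidose libraries ran from 43.2 through a median of 48.7 to 58.9 CPM. Control 5 alone lay above all other libraries, and the other 4 controls lay under the middle of the dosed animals. The means were nearly level at 50.8 ± 20.4 CPM (SD, n = 5), 49.5 ± 5.04 CPM (SD, n = 7) and 48.9 ± 8.35 CPM (SD, n = 5) in controls, multidose and single dose. The log2 fold changes were -0.036 (SE 0.18) for multidose and -0.054 (SE 0.19) for single dose. Leaving out control 5 turned them to 0.24 and 0.22.

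BAG3 (ENSSSCG00000010686, chromosome 14, 129510240 to 129533998) is the cochaperone that links HSP70 and the small heat shock proteins to autophagy. It measured 109, 132, 155, 195 and 154 CPM in the controls and 79.0, 116, 132, 123 and 109 CPM after a single dose. Among the 7 multidose animals the lowest measured 63.8, the median 105 and the highest 199 CPM, the widest group of the 3. The 4 M1 libraries of the multidose group lay below every control and the other 3 did not. The means were 149 ± 32.2 CPM (SD, n = 5) in controls, 121.4 ± 46.4 CPM (SD, n = 7) in multidose animals and 112 ± 20.2 CPM (SD, n = 5) after a single dose. The log2 fold change of multidose was -0.30 (SE 0.23, adjusted p = 0.578 by edgeR) and turned to 0.14 in the M8 and M9 libraries alone. Single animals moved it too, to -0.45 without multidose 5 and to -0.18 without control 4. That of single dose was -0.42 (SE 0.25, adjusted p = 0.891 by edgeR).

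HSPB1 (ENSSSCG00000039962, chromosome 3, 10038074 to 10039441), known as HSP27, is a small heat shock protein that holds unfolded proteins and protects actin filaments. The controls measured 950.2, 1242, 813, 2281 and 1026 CPM and the single dose animals 600.4, 1484, 856, 762 and 1564 CPM. Multiple doses gave a lowest value of 529, a median of 689 and a highest of 1461 CPM over 7 animals. Control 4 was the highest library, and the other 4 controls lay inside the range of the dosed animals. Its log2 fold change was -0.58 for multidose (SE 0.31, adjusted p = 0.431 by edgeR) and -0.26 for single dose (SE 0.34, adjusted p = 0.915 by edgeR). Without control 4 these were -0.26 and 0.065. The means were 1262 ± 590.3 CPM (SD, n = 5) in controls, 1053 ± 440.3 CPM (SD, n = 5) after a single dose and 843 ± 325 CPM (SD, n = 7) after multiple doses.

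CRYAB (ENSSSCG00000036724, chromosome 9, 39638505 to 39643530) encodes alpha B-crystallin, the small heat shock protein that binds desmin and titin in heart muscle. It measured 3141, 5583, 3923, 8444 and 3484 CPM in controls and 1744, 6278, 3743, 4114 and 5799.5 CPM after a single dose. In the multidose group of 7 the values spanned 2241 to 5330.2 CPM with a median of 3729 CPM. Single dose 1 was the lowest library and control 4 the highest, and the remaining controls lay among the dosed animals. The log2 fold change was -0.44 for multidose (SE 0.31, adjusted p = 0.540 by edgeR) and -0.18 for single dose (SE 0.34). Without control 4 it was -0.15 and 0.11. The means were 4915 ± 2184 CPM (SD, n = 5), 4336 ± 1805 CPM (SD, n = 5) and 3626 ± 1118 CPM (SD, n = 7) in controls, single dose and multidose.

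HSPA5 (ENSSSCG00000005601, chromosome 1, 265930044 to 265934959) encodes BiP, the HSP70 of the endoplasmic reticulum and the sensor partner of the unfolded protein response. Controls measured 188, 285, 234, 413 and 268 CPM and single dose animals 173, 221, 213, 256 and 215 CPM. The 7 multidose libraries ran from 165 through a median of 196 to 357 CPM. Control 4 was the highest library, followed by multidose 5, and the groups overlapped. The means were 278 ± 84.3 CPM (SD, n = 5) in controls, 233 ± 73.7 CPM (SD, n = 7) in multidose animals and 216 ± 29.3 CPM (SD, n = 5) after a single dose. The log2 fold changes of -0.25 (SE 0.21) and -0.36 (SE 0.23) for multidose and single dose moved to -0.064 and -0.17 without control 4.

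HSPD1 (ENSSSCG00000016077, chromosome 15, 101360355 to 101373498) and HSPE1 (ENSSSCG00000016078, chromosome 15, 101374019 to 101376146) encode HSP60 and HSP10, the barrel and the lid of the mitochondrial chaperonin. They are neighbours, with 520 bases and no other gene between them in RefSeq. HSPD1 was the steadiest of the 10 genes, with a highest library 1.95 times the lowest, against a median of 2.49 over all tested genes. Its controls measured 139.9, 252, 244, 272 and 262 CPM and its single dose animals 229, 268, 253, 200.4 and 249 CPM. Among the 7 multidose animals the lowest measured 208, the median 238 and the highest 273 CPM. Control 1 lay below every other library and the rest overlapped. The means were 234 ± 53.8 CPM (SD, n = 5), 239.9 ± 26.0 CPM (SD, n = 5) and 241 ± 23.2 CPM (SD, n = 7) in controls, single dose and multidose, and the log2 fold changes were 0.041 (SE 0.15) and 0.035 (SE 0.16).

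HSPE1 was the gene of the 10 with the highest positive values against control. It measured 133, 140.2, 84.4, 222 and 198 CPM in controls and 247, 208, 146, 111 and 218 CPM after a single dose. Multiple doses gave a lowest value of 130.1, a median of 227 and a highest of 267 CPM over 7 animals. The 4 M1 libraries of the multidose group and single dose 1 were the 5 highest of all libraries, and control 3 was the lowest. The means were 205 ± 53.5 CPM (SD, n = 7) after multiple doses, 186 ± 55.6 CPM (SD, n = 5) after a single dose and 156 ± 54.7 CPM (SD, n = 5) in controls. The log2 fold change was 0.40 for multidose (SE 0.25, adjusted p = 0.495 by edgeR) and 0.26 for single dose (SE 0.27, adjusted p = 0.904 by edgeR). In the M8 and M9 libraries alone the values were -0.046 and 0.13. Leaving out control 3 gave 0.25 and 0.10, and leaving out control 4 gave 0.57 and 0.42.

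**Figure D2:**
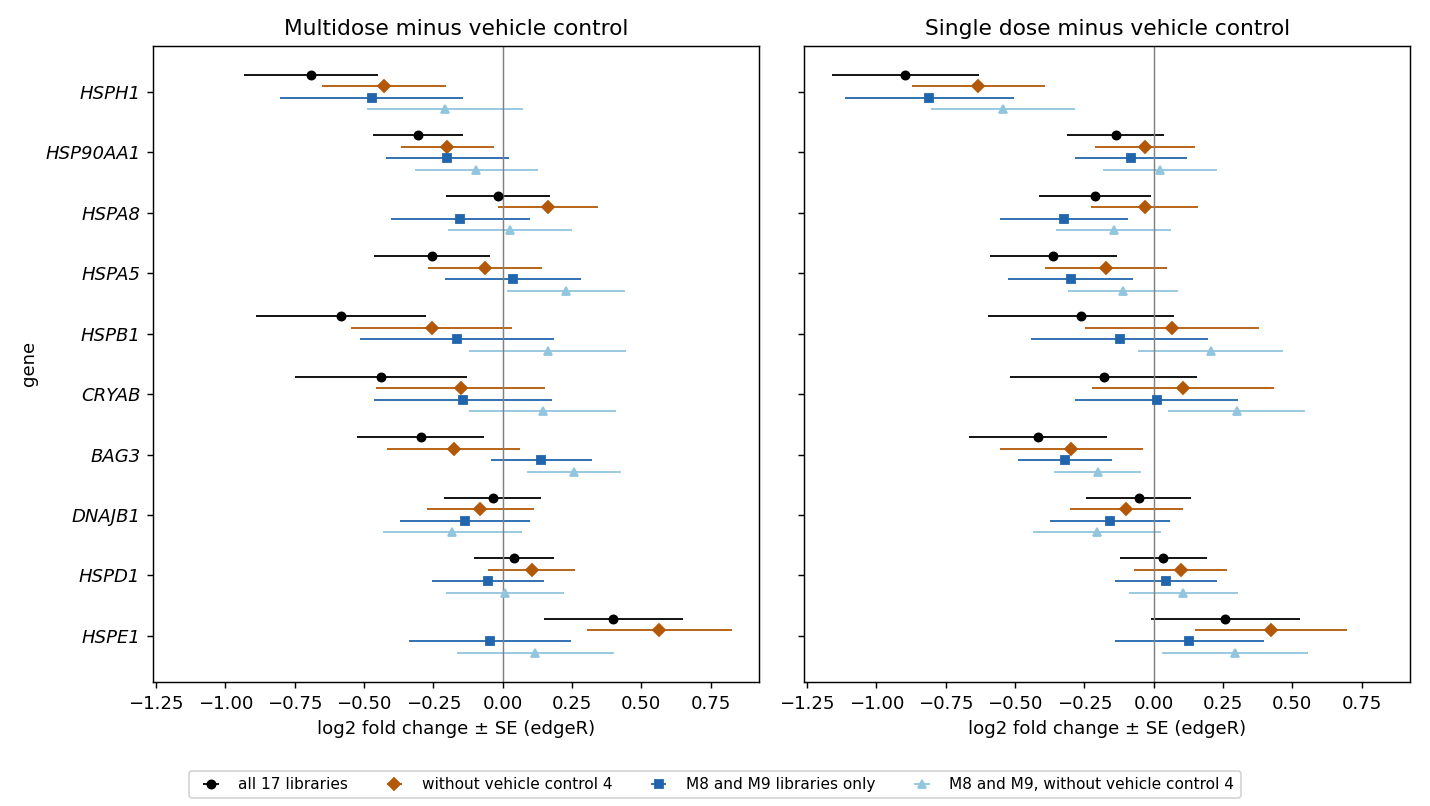
Log2 fold change ± SE (edgeR) of each chaperone gene for multidose (left) and single dose (right) against vehicle control, in all 17 libraries, without vehicle control 4, in M8 and M9 libraries only, and in M8 and M9 libraries without vehicle control 4. HSPH1 and DNAJB1 lie left of 0 in all 4 fits of both panels. In the left panel 7 of the 10 genes cross 0 between fits, all but HSPH1, HSP90AA1 and DNAJB1.

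Repeated and single dosing were compared directly as well. The log2 fold changes of multidose against single dose ran from -0.32 for HSPB1 (SE 0.31) to 0.21 for HSPH1 (SE 0.25), with adjusted p = 1 by edgeR for each of the 10 genes. CRYAB stood at -0.26 (SE 0.31), HSPA8 at 0.20 (SE 0.19) and HSP90AA1 at -0.17 (SE 0.16). Values below 0 were found for 3 of the 10 genes, against 49.5% of all genes. No gene of the 10 separated the dosed groups, where 0.0693% of all genes did.

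A single control weighed on many of these values. Vehicle control 4 was the highest of the 17 libraries for 6 of the 10 genes (HSPH1, HSP90AA1, HSPA8, HSPA5, HSPB1 and CRYAB) and second for BAG3 and HSPD1, while it was the highest for 8.96% of all tested genes. The 10 genes took 1.42% of its counts, against at most 1.05% in any dosed animal and 0.968% in the other controls. The control mean was the highest of the 3 group means for 8 of the 10 genes with all libraries, for 5 without control 4, and for 2 (HSPH1 and DNAJB1) in the M8 and M9 libraries without control 4. The median log2 fold change of the 10 genes went from -0.27 to -0.12 for multidose and from -0.20 to -0.033 for single dose when this library was left out. Leaving out control 1 instead moved the medians the other way, to -0.39 and -0.32, with 9 of the 10 genes below 0 in each comparison. Among related genes, control 4 was also the highest library for 13 of 25 tested genes of the endoplasmic reticulum chaperones and unfolded protein response, including HSP90B1, HYOU1 and PDIA4, for HSP90AB1 and DNAJA1, and for 0 of 12 mitochondrial chaperone and protease genes. Other genes moved with it. Of 11 glucocorticoid receptor targets, all 11 had values below 0 in both comparisons with control, and of 20 immediate early genes 18 and 12 did, with 0 called by edgeR in either list and 7 and 5 targets and 10 and 1 early genes at an unadjusted p under 0.05. The summed level of 11 glucocorticoid receptor targets was 1572 CPM in control 4 and 219 to 456 CPM in the other 16 libraries. The lowest control stood at 356 CPM and the median control at 444 CPM. Single dose animals reached at most 298 CPM and multidose animals at most 420 CPM. In control 4 the summed level of 20 immediate early genes was 1013 CPM, against 415 to 896 CPM in the other libraries. The sum of 7 macrophage markers was 569 against 222 to 464 CPM, and that of 6 skeletal-type muscle markers 51156 against 26919 to 46901 CPM. For the remaining cell type marker lists, control 4 lay inside the range of the other libraries. The part of all these genes in the chaperone levels was not tested.

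The second comparison set the 5 M1 libraries against the 12 M8 and M9 libraries, with the dosing group as a term of the fit. No control is an M1 library, so the fitted difference rests on 4 against 3 multidose and 1 against 4 single dose animals. Controls enter that fit only through the estimate of spread, the scaling and the filter. The means, ranges and overlaps given by name include the controls. By edgeR, 2 of the 10 genes were lower in the M1 libraries (adjusted p under 0.05), BAG3 and HSPB1, and 0 were higher. Of all genes 14.0% were called, 8.06% lower and 5.92% higher. The values of 3 genes failed to overlap between the name classes (BAG3 and HSPB1 with M1 lower, HSPE1 with M1 higher), against 5.74% of all genes (3.01% with M1 lower, 2.73% with M1 higher). At an unadjusted p under 0.05 it was 5 of the 10 genes, 4 lower (16.4% of all genes) and 1 higher (13.5%), against 29.9% in either direction. Values below 0 were found for 6 of the 10 genes, against 51.4% of all genes.

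BAG3 ran from 63.8 through a median of 88.5 to 105 CPM in the 5 M1 libraries and from 109 through 139.5 to 199 CPM in the 12 others. Every M1 library lay below every other one, and the closest pair was multidose 3 and vehicle control 1. The means were 86.4 ± 15.7 CPM (SD, n = 5) and 143 ± 30.2 CPM (SD, n = 12). The log2 difference was -0.81 (SE 0.16, adjusted p = 0.00542 by edgeR), and 1.73% of all genes had a smaller p. Within the multidose group alone (4 against 3 animals) it was -0.90 (adjusted p = 0.0358 by edgeR). After thinning every library to the depth of the shallowest it was -0.81 (adjusted p = 0.00494 by edgeR).

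HSPB1 ran from 529 through 600.4 to 689 CPM in the M1 libraries and from 762 through 1019 to 2281 CPM in the others. Again no M1 library reached the lowest M8 or M9 library, which was single dose 4. The means were 618 ± 69.3 CPM (SD, n = 5) and 1199 ± 438 CPM (SD, n = 12), with a log2 difference of -0.90 (SE 0.27, adjusted p = 0.0349 by edgeR). It was -0.86 in the multidose group alone (adjusted p = 0.0411 by edgeR) and -0.89 at equal depth. The call was lost without multidose 1, 2, 3, 5 or 6 or single dose 1 in turn (adjusted p above 0.05 and at most 0.125 by edgeR). It was lost too with the suffix _R of the library names as a covariate (adjusted p = 0.0675 by edgeR).

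CRYAB, HSPE1 and HSPA5 did not pass in the main edgeR fit and did so in some other fits. CRYAB ran from 1744 through 2360.0 to 4134 CPM in M1 libraries and from 3141 through 4261 to 8444 CPM in the others, where multidose 2 and 4 alone of the M1 libraries reached the range of the others. Its log2 difference was -0.86 (SE 0.30, adjusted p = 0.0611 by edgeR). HSPE1 had 227 to 267 CPM in M1 libraries and 84.4 to 222 CPM in the others, and every M1 library lay above every other one. Its log2 difference was 0.64 (SE 0.22, adjusted p = 0.0636 by edgeR), which within the multidose group alone came to 0.70 (adjusted p = 0.0395 by edgeR). HSPA5 had 165 to 237 CPM against 188 to 413 CPM, which overlap, and a log2 difference of -0.52 (SE 0.19, adjusted p = 0.0782 by edgeR). Without vehicle control 4, CRYAB, HSPE1 and HSPA5 passed (adjusted p = 0.0341, 0.0457 and 0.0461 by edgeR), beside BAG3 and HSPB1. That library enters the name difference only through the estimate of spread, the scaling and the filter.

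The remaining 5 genes had smaller differences by library name. HSPH1 stood at -0.47 (SE 0.25) and HSP90AA1 at -0.25 (SE 0.17). The other values were positive, at 0.29 (SE 0.18) for HSPA8, 0.25 (SE 0.18) for DNAJB1 and 0.075 (SE 0.16) for HSPD1. The adjusted p values of these 5 genes in the main fit ran from 0.218 to 0.784 by edgeR. HSPH1 passed in 1 alternative fit, that of the dosed groups alone (adjusted p = 0.0282 by edgeR). The partner genes of the mitochondrial chaperonin stood apart in this comparison, with 0.64 for HSPE1 and 0.075 for HSPD1, a difference between genes that was not tested.

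**Figure D3:**
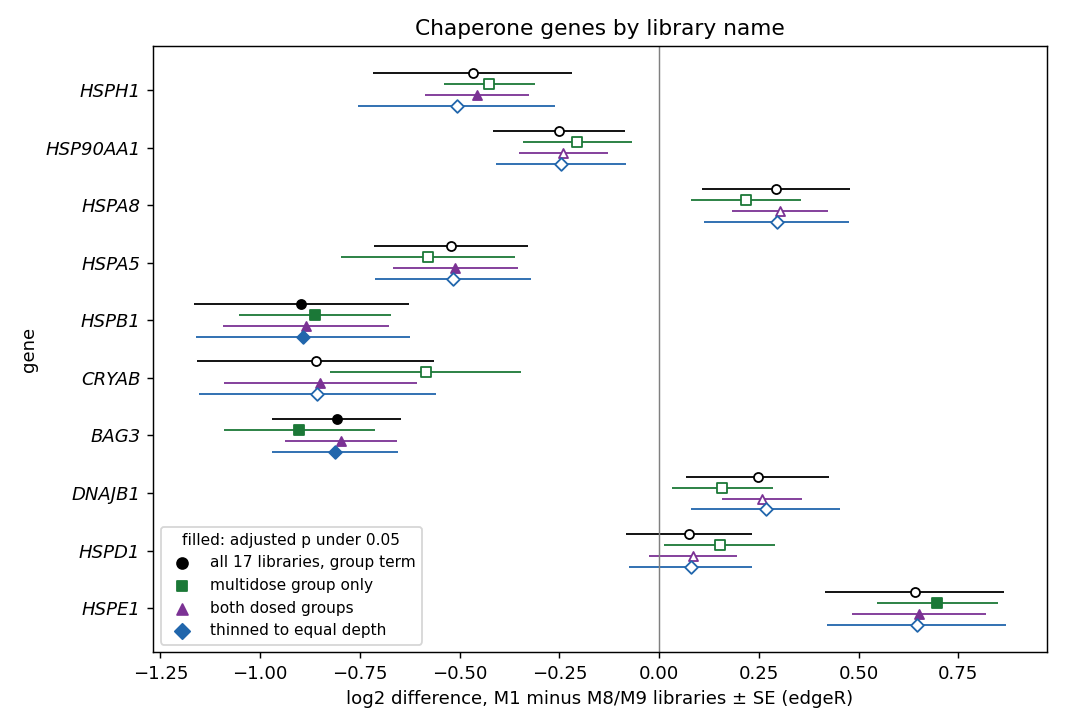
Log2 difference ± SE (edgeR) of M1 minus M8 and M9 libraries for each chaperone gene, in 4 fits: all 17 libraries with a group term, the multidose group only, both dosed groups, and all libraries thinned to equal depth. Filled symbols have an adjusted p under 0.05. BAG3 and HSPB1 are filled in all 4 fits, and the sign of each gene is the same in all 4.

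Cell type markers differed by library name too. Of 9 fibroblast markers 3 rose in the M1 libraries (PDGFRA, COL3A1 and DCN) and 0 fell, with summed levels of 4784 to 8757 CPM in M1 and 3005 to 6882 CPM in other libraries. Of 4 Schwann cell markers 3 rose, with sums of 10.5 to 17.1 and 3.81 to 16.1 CPM. Of 7 T and NK cell markers 2 fell (CD3E and CD3D), with sums of 8.47 to 13.2 and 13.8 to 47.0 CPM, and of 7 mural and smooth muscle markers 2 fell (CNN1 and MCAM), with sums of 691 to 1045 and 947 to 1978 CPM. Of 11 cardiomyocyte markers 0 were called, and their sum was 62482 to 82116 CPM in M1 and 44718 to 77281 CPM in other libraries. Of 9 endothelial and 4 red blood cell markers 1 each rose and 0 fell. All 4 red blood cell markers had values above 0 (median 1.79, against 0.094 for the endothelial markers). The sums of the 5 red blood cell markers found were 97.2 to 637 CPM in M1 and 26.0 to 505 CPM in other libraries. Of 7 macrophage, 4 adipocyte and 3 skeletal-type muscle markers 0 were called by edgeR. No marker that the table holds was at 0 in all 17 libraries. The part of these cells, and of whatever the names stand for, in the chaperone differences was not tested.

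The wider chaperone network gives the setting for these genes. In the dosing comparisons 0 genes passed by edgeR in each chaperone list, with 0 to 3 genes of a list at an unadjusted p under 0.05. Among 25 genes of the endoplasmic reticulum chaperones and unfolded protein response, 22 had values below 0 after multiple doses (median -0.15) and 23 after a single dose (median -0.23). The 3 with the smallest p after multiple doses were CRELD2 (-0.55, SE 0.21), SYVN1 (-0.41, SE 0.18), a ubiquitin ligase of that compartment, and HYOU1 (-0.44, SE 0.20), its HSP110. The 21 other targets of heat shock factor 1 had medians of -0.0052 and -0.081, with 11 and 15 values below 0. CHORDC1, an HSP90 cochaperone among them, stood at -0.38 (SE 0.20) after multiple doses and -0.59 (SE 0.22) after a single dose. The factor's own gene, HSF1, stood at -0.22 (SE 0.13) and -0.14 (SE 0.15). The 8 subunits of the cytosolic chaperonin TRiC had medians of 0.098 and 0.031. Over the lists other than that of the endoplasmic reticulum, medians ran from -0.21 to 0.098 after multiple doses and from -0.14 to 0.055 after a single dose.

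By library name, the partners of BAG3 and the small heat shock proteins at the Z-disc had the largest share of calls among the chaperone lists. All 9 tested had values below 0 in the M1 libraries (median -0.51), against 51.4% of all genes. Beside 8.06% of all genes, 4 of these 9 fell by edgeR. They were FLNC (-1.4999, SE 0.31, adjusted p = 0.00649 by edgeR), a filamin that BAG3 clears when it is damaged, and DES (-0.89, SE 0.27, adjusted p = 0.0381 by edgeR), the desmin that CRYAB binds. The others were HSPB8 (-0.80, SE 0.17, adjusted p = 0.00754 by edgeR), the small heat shock protein that pairs with BAG3, and SQSTM1 (-0.51, SE 0.16, adjusted p = 0.0395 by edgeR), the autophagy receptor p62. The level of FLNC was 551 ± 95.2 CPM (SD, n = 5) in M1 libraries and 1577 ± 759 CPM (SD, n = 12) in the others. That of HSPB8 was 257 ± 56.7 CPM (SD, n = 5) beside 416 ± 79.4 CPM (SD, n = 12).

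Of the 4 other small heat shock proteins tested, 1 fell (HSPB8) and all 4 had values below 0, with HSPB6 at -0.88 (SE 0.33, adjusted p = 0.0803 by edgeR). Of 10 other HSP70 and HSP110 genes 2 fell, HYOU1 (-0.70, adjusted p = 0.00562 by edgeR) and HSPA13 (-0.72, adjusted p = 0.00954 by edgeR), and 1 rose, HSPA12A (0.80, adjusted p = 0.0268 by edgeR). Among 22 cochaperones of HSP70 and HSP90, 3 fell (BAG5, TTC4 and HSPBP1) and 0 rose, and among 18 J-domain proteins 1 rose (DNAJC19) and 1 fell (DNAJC5). In the endoplasmic reticulum list 2 of 25 fell (SYVN1 and HYOU1) and 1 rose (SELENOK), and in the mitochondrial list 1 of 12 rose (HSCB) and 1 fell (CLPB). Of 20 immediate early genes 1 fell (SOCS3), and of 11 glucocorticoid receptor targets 0 were called by edgeR, with 2 at an unadjusted p under 0.05. In the 3 other HSP90 genes, the 8 TRiC subunits and the 9 heat shock factors and regulators, 0 were called by edgeR, and 0, 1 and 4 had an unadjusted p under 0.05. The 21 other heat shock factor 1 targets had a median of 0.022, with 11 values above 0 and 10 below. The medians of the 10 chaperone genes and of all genes were -0.36 and -0.014. Of all genes 8.06% fell and 5.92% rose. The calls in the endoplasmic reticulum, mitochondrial and J-domain lists lay near those shares.

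Across the 17 animals the genes differed in how widely they varied. The highest library was 4.84 times the lowest for CRYAB, 4.31 times for HSPB1 and 4.23 times for HSPH1. It was 3.16 times for HSPE1, 3.12 times for BAG3, 2.50 times for HSPA5, 2.35 times for DNAJB1, 2.23 times for HSPA8 and 2.06 times for HSP90AA1. Some pairs of genes went together. Pearson's r of log2 CPM over the 17 libraries was 0.89 between HSPB1 and CRYAB, 0.78 between HSPA5 and BAG3, 0.78 between HSPA5 and CRYAB, and 0.73 between HSPH1 and HSP90AA1. DNAJB1 and HSPE1 went the other way against some of them, with -0.52 between CRYAB and DNAJB1 and -0.52 between BAG3 and HSPE1, while the neighbours HSPD1 and HSPE1 had 0.40. Of the 45 pairs 32 were positive, with a median of 0.30. These are descriptions over libraries that share the scaling, the M1 names and control 4.

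In the 12 M8 and M9 libraries 43 of 45 pairs were positive, with a median of 0.41. HSPB1 and CRYAB stayed at 0.88, HSP90AA1 and HSPD1 had 0.83, and HSPB1 and HSPE1 went from -0.12 to 0.73. HSPH1 and HSPA8 went from 0.41 to 0.76, but without control 4 the same pair stood at 0.093 over 16 libraries and 0.56 over 11. Without control 4, 28 of 45 pairs were positive over 16 libraries (median 0.17), and 35 of 45 over the 11 M8 and M9 libraries that remain (median 0.31). Over those 11 libraries HSPB1 and CRYAB stood at 0.79 and HSPA5 and BAG3 at 0.67. The pair HSPA5 and CRYAB fell to 0.36, and HSPH1 and HSP90AA1 to 0.49.

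**Figure D4:**
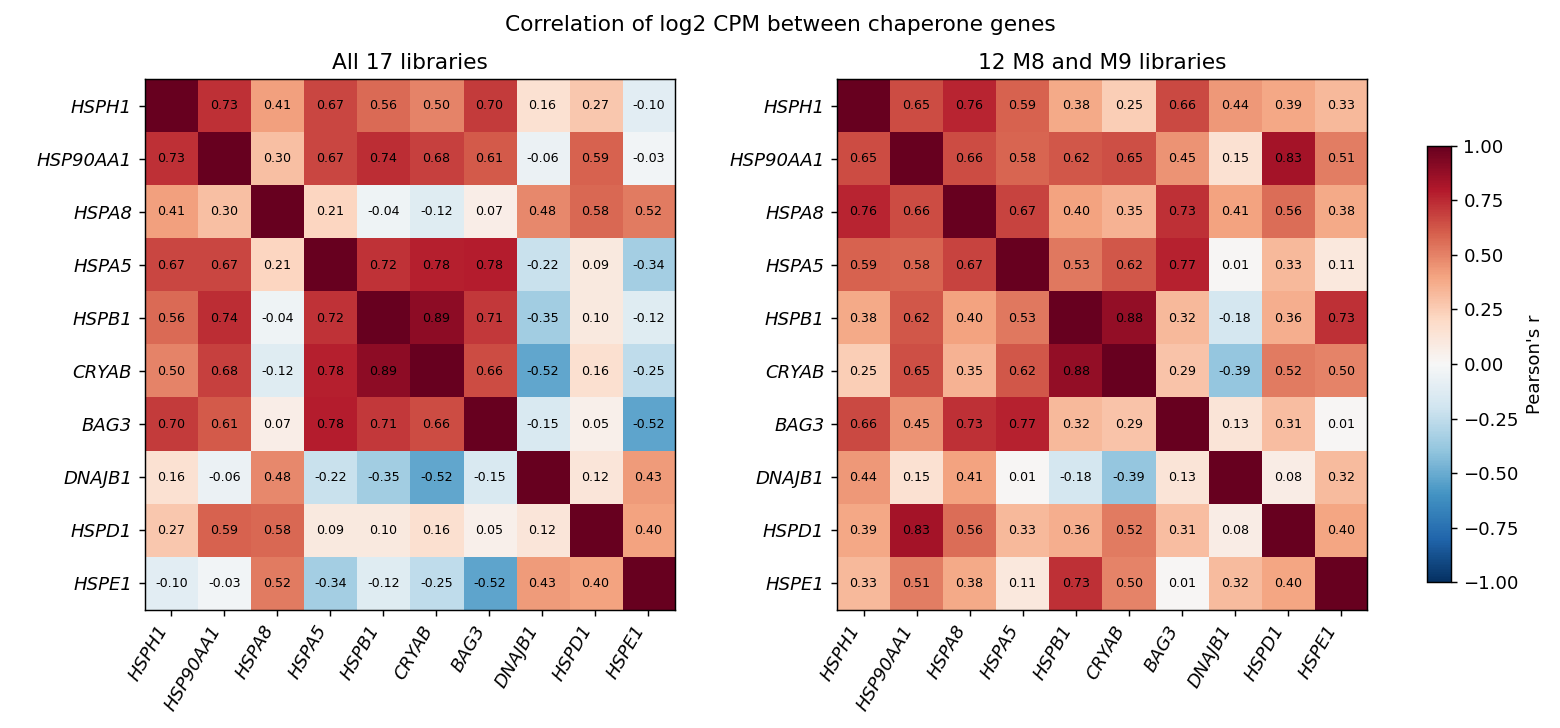
Pearson's r of log2 CPM between each pair of chaperone genes over all 17 libraries (left) and over the 12 M8 and M9 libraries (right), from -1 (blue) to 1 (red). HSPB1 and CRYAB are at 0.89 and 0.88, and the blue cells of HSPE1 on the left are absent on the right.

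Among 11497 other named genes with a mean of at least 1 CPM, those closest to HSPH1 over the 17 libraries were NUDCD1 (r = 0.893), HCN2 (0.858), MAFF (0.857), FKBP5 (0.855) and S1PR2 (0.845). Without control 4 these stood at 0.817, 0.797, 0.742, 0.739 and 0.730, and 2 of the 5 (NUDCD1 and HCN2) were still among the 5 closest. The genes closest to the mean standardised level of all 10 chaperones were KLF15 (r = 0.888), TRPM2 (0.863), MORF4L2 (0.847), SNAP23 (0.814) and IQCA1 (0.796). Without control 4 they stood at 0.795, 0.749, 0.690, 0.657 and 0.748, and 1 of the 5 (KLF15) was still among the 5 closest. By Spearman's rho over all 17 libraries it was 1 of the 5 as well (TRPM2). By Pearson's r over the 12 M8 and M9 libraries, 1 of the 5 remained for HSPH1 (NUDCD1) and 1 for the mean (TRPM2). Over the 11 of these without control 4, 0 of the 5 remained for either.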

How the data were processed

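RNA from the myocardium of 17 animals was sequenced on an Illumina NextSeq, per the labels' protocols. The deposited file holds raw read counts per gene, whole numbers from 10374 genes at 0 in every library upwards. Per the submitters' processing notes, the tools were HISAT2 2.1.0 and Subread 1.6.2, with FastQC 0.11.7, SAMtools 1.7 and Trimmomatic 0.33, on the build Sscrofa11.1. Neither strandedness nor annotation version is stated in these sources, so reads of antisense neighbours cannot be told apart.

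The main tool was edgeR 4.0.16 in R 4.3.3, with filterByExpr, TMM scaling, and robust quasi-likelihood tests, two-sided, with Benjamini-Hochberg adjustment over 15884 genes and a threshold of 0.05. The dosing comparisons had 1 coefficient per group over all 17 libraries, and the name comparison added a term for M1 names. Both designs were first tested on simulated data. Alternatives included DESeq2 1.42.0 and limma-voom (limma 3.58.1), other scalings and filters, thinning, library name terms and each library left out. Symbols and positions come from the table and from RefSeq on Sscrofa11.1. The chaperone genes and the lists were chosen with earlier results of these data known. Of other lists, at most 3 genes with the smallest p are named per comparison, or up to 4 that passed, and the 5 genes closest by correlation. Promoter sequences were not analysed here. The count of calls by library name among heat shock factor 1 targets is not reported here.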

Additional observations from a re-analysis of the deposited data

Results flagged for a closer look

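In 2 of 30 sets of 4 to 10 animals (10 genes in 3 dosing groups), 1 animal stood far from its group by Dixon's test at the 95% level, which chance gives in about 1 of 20 groups. DNAJB1 measured 6.44 log2 CPM in vehicle control 5, where the next highest control measured 5.48. The other DNAJB1 controls lay between 36.9 and 44.7 CPM against 86.9 CPM in this animal. HSPD1 measured 7.13 log2 CPM in vehicle control 1, where the next lowest control measured 7.93. That animal was also the lowest of the 17 for HSP90AA1.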

How the results depend on the processing

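In the dosing comparisons, 0 of the 10 chaperone genes were called under every alternative and every library left out. Of all genes, DESeq2 called 8 for multidose and 10 for single dose against control, and thinning to equal depth, chosen after seeing the data, 1 for single dose. Leaving out 1 library gave 0 to 1 genes for single dose against control and for multidose against single dose. HSPH1 kept its direction against control in every fit.

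Signs of dosing values turned, among them those of HSPB1, CRYAB and HSPE1, and the cause was not tested. For multidose against control, the M8 and M9 libraries alone gave HSPA5 0.038, BAG3 0.14, HSPD1 -0.054, HSPE1 -0.046, an M1 name covariate gave HSPA5 0.014, CRYAB 0.029, BAG3 0.10, HSPD1 -0.0036, HSPE1 -0.0058, the M8 and M9 libraries without control 4 gave HSPA8 0.027, HSPA5 0.23, HSPB1 0.16, CRYAB 0.14, BAG3 0.26, and limma-voom gave HSPA8 0.057. For single dose against control, the M8 and M9 libraries gave CRYAB 0.012, and without control 4 as well they gave HSP90AA1 0.023, HSPB1 0.21, CRYAB 0.30. For multidose against single dose, the M8 and M9 libraries gave HSPD1 -0.10, HSPE1 -0.17 (without control 4 -0.10 and -0.17), the name covariate CRYAB 0.12, DNAJB1 -0.066, HSPD1 -0.025, HSPE1 -0.12, limma-voom HSPA5 -0.12, BAG3 -0.17, upper-quartile scaling HSPD1 -0.011, and the filter of 1 CPM in 5 libraries HSPD1 -0.00067. Leaving out 1 library, HSPA8 ran from -0.14 to 0.16, DNAJB1 from -0.13 to 0.24 and HSPD1 from -0.10 to 0.10 for multidose against control. HSPB1 ran from -0.46 to 0.065, CRYAB from -0.35 to 0.11, DNAJB1 from -0.15 to 0.22 and HSPD1 from -0.11 to 0.10 for single dose against control. For multidose against single dose, HSPA5 ran from -0.020 to 0.18, BAG3 from -0.038 to 0.23, DNAJB1 from -0.035 to 0.12 and HSPD1 from -0.052 to 0.048.

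By library name all 10 genes kept their sign in every fit, and BAG3 was called in each (from -1.16 to -0.69). Of the 10 genes, DESeq2 called 4, limma-voom 5, a fit with no group term 5, the dosed groups alone 6, and libraries without the suffix _R, chosen after seeing the data like the suffix covariate, 5. Leaving out 1 library gave 1 (without multidose 1, 2, 3, 5 or 6 or single dose 1) to 5 (without control 4), with 4 without multidose 7. Of all genes, limma-voom called 4553, no group term 3783 and the multidose group alone 723, and leaving out 1 library gave 858 (without single dose 1) to 2748 (without control 3), with 1247 without multidose 6 and 1450 without multidose 5.

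For the replicate numbers of the titles, same-numbered deviations correlated from -0.22 to 0.41 and were the best match in 2 of 15 cases. The 0.41 joined multidose 1 and single dose 1, both M1 libraries. Whether the animals were paired in some way cannot be told from these values. With the number as a block 0 genes were called in each dosing comparison (2176, 977 and 1213 at an unadjusted p under 0.05). The block turned HSPA8 0.089, DNAJB1 0.064 for multidose against control, DNAJB1 0.015 for single dose against control, and HSPA5 -0.0033, BAG3 -0.12 for multidose against single dose. CPM per kilobase was not run, for want of transcript lengths. The counting error of these genes was at most 4.70%, which covers the sampling of reads alone. Depth and library name are linked, and apart from thinning the part of depth was not tested.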
